A study of Mus musculus with 90 samples.

Results

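10 genes that mark hepatic stellate cells and the collagen matrix were followed across the 9 groups of a mouse liver RNA-seq study. The members are Col1a1, Col1a2, Col3a1, Lrat, Dcn, Reln, Acta2, Timp1, Lum and Des, 10 of the 24475 genes in each of the 2 deposited tables. They were chosen by symbol and matched to the Entrez identifier used in both tables. The members and the other gene lists used below were chosen with earlier results of these data known. All 10 members had enough counts to be tested in both experiments.

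The study asks how glucagon receptor signalling in the liver acts through cAMP and protein kinase A (PKA). In experiment 1 mice carried AAV8, a liver-directed virus, encoding a short hairpin RNA, and the groups were Control, Gcgr KD, Gnas KD, PKA KD and Epac2 KD, where KD is knockdown and each group had 10 libraries. In experiment 2 a Control AAV or a Prkar1a KD was combined with a Control mAb or a Gcgr mAb, an antibody against the glucagon receptor, with 10 libraries in each of the 4 groups. Gnas encodes the G protein subunit that couples the receptor to cAMP synthesis, Epac2 (Rapgef4) is a cAMP sensor other than PKA, and Prkar1a encodes a regulatory subunit that holds PKA inactive. Not given in the sources used here are strain, sex, age, virus dose, time after injection, hairpin promoter, the content of the Control virus of experiment 1 and the antibody clone. The labels number the samples but do not say that they are separate animals. The p-values therefore cover only the spread from one sample to the next, which may be technical.

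Hepatic stellate cells lie between hepatocytes and the sinusoidal endothelium and store retinoids as esters. When they are activated they lose retinoid stores, take on features of myofibroblasts and deposit fibrillar collagen. Col1a1 and Col1a2 encode the chains of type I collagen, and Col3a1 encodes type III collagen. Lum and Dcn encode lumican and decorin, small leucine-rich proteoglycans that bind collagen fibrils. Timp1 is a secreted inhibitor of matrix metalloproteinases, and Acta2 is the smooth muscle actin of myofibroblasts and vessel walls. Lrat makes retinyl esters, Reln encodes reelin, a secreted glycoprotein made by stellate cells in liver, and Des encodes the intermediate filament desmin of stellate and muscle cells.

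RefSeq promoter entries were at hand for 7 of the 10 members (Col1a2, Col3a1, Lrat, Reln, Acta2, Timp1 and Des). The 150 bases before the start site are shown for the 5 of these members that changed in at least one comparison with a control group, in the 5′ to 3′ direction of the gene (GRCm38.p6). Col1a2 is at chr6:4505468-4505617 on the plus strand, Col3a1 at chr1:45311388-45311537 on the plus strand, Reln at chr5:22344706-22344855 on the minus strand, Acta2 at chr19:34255374-34255523 on the minus strand and Timp1 at chrX:20870016-20870165 on the plus strand. For Acta2 the start site of the promoter entry lies inside the annotated gene span given with its values, so its positions are counted from that start and not from the end of the span. Capitals mark letters that match a searched motif on either strand.
Col1a2: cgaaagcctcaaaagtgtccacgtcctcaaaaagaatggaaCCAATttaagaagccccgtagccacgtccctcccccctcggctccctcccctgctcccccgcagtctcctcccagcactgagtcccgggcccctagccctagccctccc
Col3a1: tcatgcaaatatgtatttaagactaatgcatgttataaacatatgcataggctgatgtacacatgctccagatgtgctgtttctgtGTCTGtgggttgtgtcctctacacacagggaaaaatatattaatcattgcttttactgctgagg
Reln: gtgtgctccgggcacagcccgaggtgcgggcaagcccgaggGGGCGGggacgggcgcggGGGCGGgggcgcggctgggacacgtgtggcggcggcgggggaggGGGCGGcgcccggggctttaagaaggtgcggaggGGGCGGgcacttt
Acta2: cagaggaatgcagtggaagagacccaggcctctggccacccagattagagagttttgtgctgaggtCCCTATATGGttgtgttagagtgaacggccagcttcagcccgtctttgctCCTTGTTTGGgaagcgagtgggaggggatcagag
Timp1: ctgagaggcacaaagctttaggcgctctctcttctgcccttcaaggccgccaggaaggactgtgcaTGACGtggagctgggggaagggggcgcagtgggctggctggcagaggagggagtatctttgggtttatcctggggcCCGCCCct
The motifs searched on both strands were CCAAT (the CCAAT box), TGACG (the core of cAMP response elements), TGANTCA (an AP-1 site), GGGCGG (an Sp1 or GC box), CAGAC (a Smad element) and the CArG-like motif of serum response factor. The last is CC, then 6 letters of which at most 1 is neither A nor T, then GG. Col1a2 held 1 CCAAT, 109 to 105 bases before the start. Acta2 held 2 CArG-like matches, 84 to 75 and 34 to 25 bases before it. Timp1 held TGACG at 84 to 80 bases and GGGCGG on the reverse strand at 8 to 3 bases. Col3a1 held CAGAC on the reverse strand at 64 to 60 bases. Reln held GGGCGG 4 times, the first of them 109 to 104 and the last 13 to 8 bases before the start. Over 32851 RefSeq promoters the same 150-base window held CCAAT in 24.5%, TGACG in 13.3%, TGANTCA in 4.24%, GGGCGG in 28.6%, CAGAC in 27.7% and the CArG-like motif in 5.1%. A match is a description of the letters and not a binding site.

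Levels are given as CPM, the count of a gene relative to the library's total over tested genes after TMM scaling (a scaling that balances libraries over most genes), with the lowest, median and highest of the 10 libraries of a group. Total counts per library were 20.8 to 33.7 M in experiment 1 and 8.87 to 19.5 M in experiment 2. Each targeted gene was lower in every library of its group than in any control library: Gcgr had a median of 172 CPM in Control and 44.9 in Gcgr KD, Gnas 359 and 44.7 in Gnas KD, Prkaca and Prkacb 95.7 and 40.4 against 9.44 and 8.94 in PKA KD, Rapgef4 89 and 8.82 in Epac2 KD, and Prkar1a 122 against 32.8 in Prkar1a KD with Control mAb. 5 libraries correlated less well than 0.98 with their group's median profile: PKA KD 3 and 5, Epac2 KD 7, Control AAV + Control mAb 10 and Control AAV + Gcgr mAb 2. Member counts and list counts that differ without these 5 are given both ways. None of 25 further stellate cell markers was at 0 in any group. As a whole-liver measurement, fewer cells of a type and less RNA per cell cannot be told apart here.

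Compared per kilobase of exon, the scale on which genes can be set beside each other, Dcn was the member with the highest level in both control groups (means of 60.2 CPM per kb in Control and 95.9 in Control AAV + Control mAb). Col3a1 followed at 12.7 and 8.67 CPM per kb. In the Control group of experiment 1 Reln (6.96 CPM per kb), Col1a2 (5.77) and Col1a1 (4.22) came next, then Lrat (2.72), Acta2 (2.44), Des (2.20), Lum (1.90) and Timp1 (0.944). In experiment 2 the control levels of Lrat (4.82 CPM per kb) and Lum (3.11) lay above those of Col1a1 (2.42), and Timp1 was again lowest (0.668). The tables were made separately, so the order within an experiment can be read but a difference between the experiments was not tested.

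In experiment 1 the collagen genes were highest in Gnas KD. 6 of the 10 members rose there against Control (Col1a1, Col1a2, Col3a1, Lum, Acta2 and Reln), and none fell, where 6.83% of all 13574 tested genes rose and 8.32% fell. The median log2 fold change of the members was 0.91, beside 0.01 over all tested genes. A change is called where the quasi-likelihood test of edgeR gave a Benjamini-Hochberg adjusted p, taken over all genes of the comparison, under 0.05. The contrasts with Control share the same 10 control libraries.

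Col1a1 (chr11:94936224-94953042) lay between 11.9 and 47.2 CPM in Control (median 23.7) and between 13.7 and 120 CPM in Gnas KD (median 62.9). 7 of the 10 Gnas KD libraries exceeded the highest Control library, and library 8 of Gnas KD lay near the bottom of the control range. The log2 fold change was 1.30 ± 0.34 (SE, n = 10 per group, edgeR adjusted p = 0.00649). Col1a2 (chr6:4505618-4541543) had a median of 29.6 CPM in Control (16.2 to 53.7) and 58.3 CPM in Gnas KD (18.5 to 115), a change of 0.97 ± 0.25 (edgeR adjusted p = 0.00611). Col3a1 (chr1:45311538-45349706) went from a median of 67.6 CPM (35.6 to 120) to 130 CPM (55.9 to 248), a change of 1.02 ± 0.24 (edgeR adjusted p = 0.00231). For Col1a2 and Col3a1 alike 6 of 10 Gnas KD libraries were above every Control library, so the groups overlapped while the medians were well apart.

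The 3 collagen genes kept nearly one order of libraries within Gnas KD: library 8 was lowest and library 10 highest for each of them. Leaving out any single library of the 20 kept all 6 calls. In this group library 8 was also the lowest for Lum, Timp1, Dcn and Des.

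Of the proteoglycans, Lum rose and Dcn did not pass the test. Lum (chr10:97565501-97572703) had a median of 4.21 CPM in Control (2.59 to 7.12) and 8.70 CPM in Gnas KD (3.77 to 12.4), with 6 libraries above the control range and a log2 change of 0.85 ± 0.23 (edgeR adjusted p = 0.00954). Dcn (chr10:97479500-97518163), its neighbour on the chromosome, had medians of 112 CPM (88.5 to 150) and 120 CPM (93.5 to 184), a change of 0.15 ± 0.14 (edgeR adjusted p = 0.541). The Dcn groups overlapped over most of their range.

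Timp1 (chrX:20870166-20874737) was the scarcest member, with 0 to 132 counts per library. Its median was 0.829 CPM in Control (0.411 to 1.36) and 1.85 CPM in Gnas KD (0.652 to 3.59), and 7 of 10 Gnas KD libraries lay above every Control library. The log2 change of 1.15 ± 0.43 missed the threshold in edgeR (adjusted p = 0.0646). It passed with limma-voom (adjusted p = 0.0461), with Control and Gnas KD fitted alone (adjusted p = 0.00624), with the libraries that stand apart left out (adjusted p = 0.0388) and without Gnas KD library 8 (adjusted p = 0.0448).

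Acta2 (chr19:34240336-34255585) rose from a median of 4.74 CPM in Control (2.51 to 9.05) to 11.0 CPM in Gnas KD (5.74 to 18.6). All 10 Gnas KD libraries were above the Control median and 6 were above the highest Control library. The log2 change was 1.08 ± 0.30 (edgeR adjusted p = 0.0104).

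Among the members tied to the stellate cell rather than to matrix, Reln rose by a smaller amount. Reln (chr5:21884454-22344705) had a narrow control range of 67.9 to 89.4 CPM (median 81.6) against 76.4 to 119 CPM in Gnas KD (median 110), and 8 of 10 libraries lay above every Control library. Its log2 change was 0.35 ± 0.10 (edgeR adjusted p = 0.0103). Lrat (chr3:82892582-82903974) had medians of 14.7 CPM (8.03 to 22.4) and 21.6 CPM (8.65 to 34.1), a change of 0.51 ± 0.22 that did not pass (edgeR adjusted p = 0.118). Des (chr1:75360292-75368579) had medians of 6.46 CPM (5.26 to 8.87) and 8.13 CPM (5.22 to 9.71), a change of 0.26 ± 0.13 (edgeR adjusted p = 0.186).

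**Figure D1:**
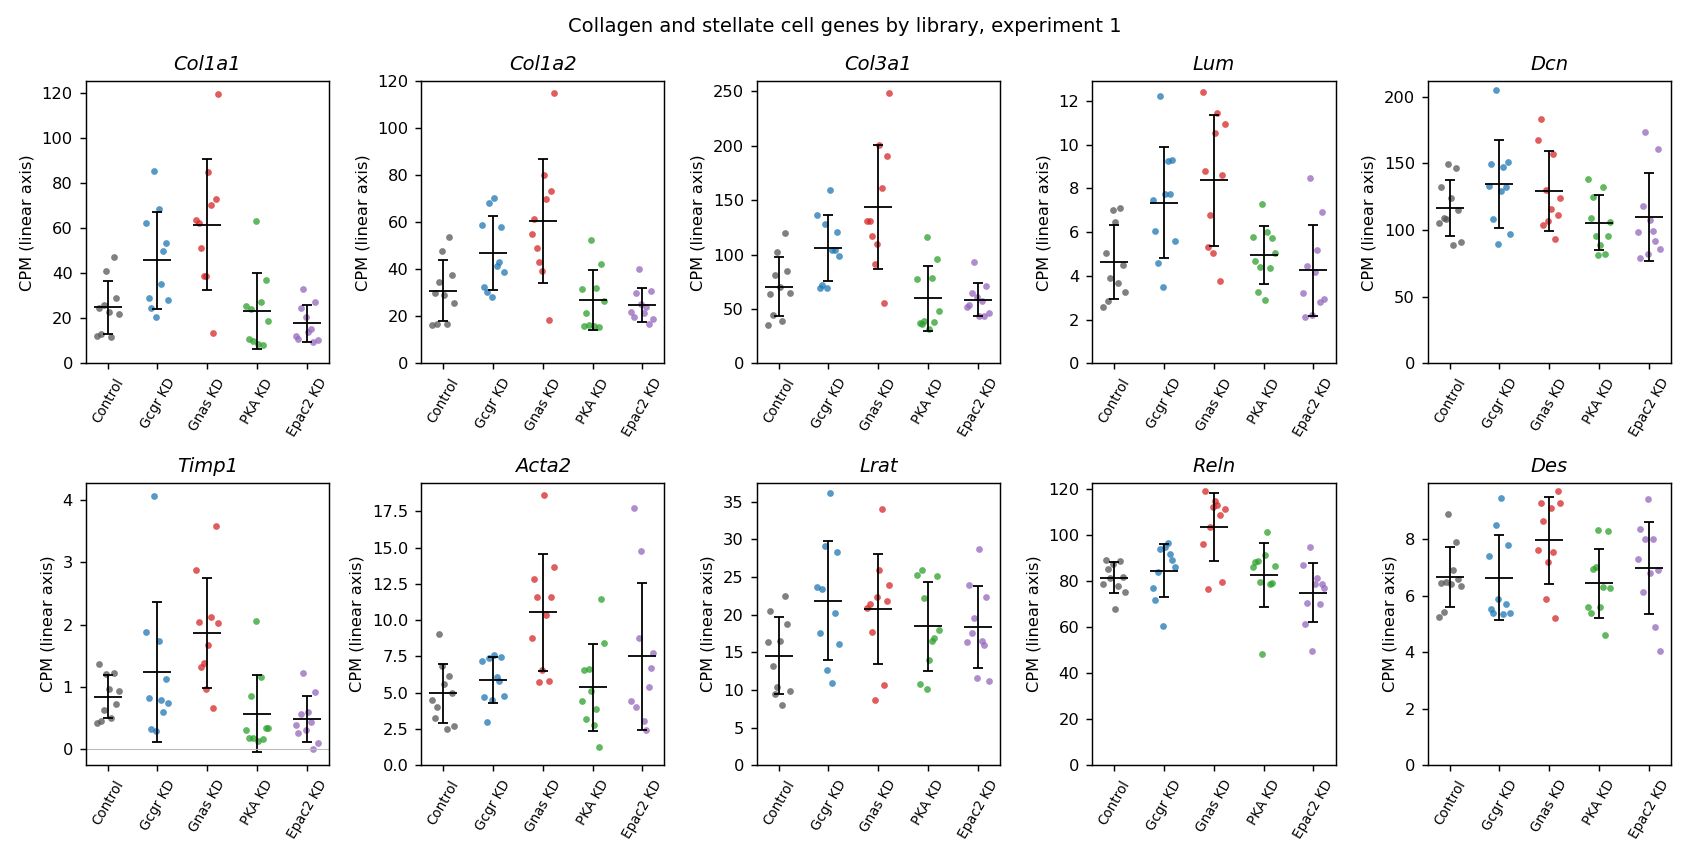
CPM of the 10 members in each of the 50 libraries of experiment 1 on linear axes, by group, with points for libraries and bars for the mean and SD of 10 libraries. The 3 collagen genes, Lum, Acta2, Timp1, Reln and Des have their highest group median in Gnas KD, with library 8 of Gnas KD low for the collagens. The groups overlap for every member.

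Gcgr KD, which lowers the receptor itself, gave fold changes above 0 for 9 of the 10 members, but no member passed the test (0 of 10, where 2.9% of all tested genes rose and 4.33% fell). 5 of the 10 had an unadjusted p under 0.05 in edgeR, in DESeq2 and in limma-voom, and each of these tools called 0. The median member log2 change was 0.58, beside 0.01 over all genes. Col1a1 had a median of 42.7 CPM in Gcgr KD (20.6 to 85.5), with 5 libraries above the Control range and a change of 0.87 ± 0.34 (edgeR adjusted p = 0.113). Col1a2 had a median of 42.2 CPM (28.1 to 70.3) and Col3a1 of 104 CPM (68.9 to 159), with changes of 0.61 ± 0.25 and 0.59 ± 0.24 (edgeR adjusted p = 0.144 and 0.132). All 10 Gcgr KD libraries were above the Control median of Col3a1.

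Lum came closest to the threshold in Gcgr KD. Its median was 7.62 CPM (3.52 to 12.2), 6 libraries were above the Control range, and the log2 change was 0.66 ± 0.23 (edgeR adjusted p = 0.0772). It was called when Gcgr KD library 5, the lowest for the 3 collagens and Lum, was left out (adjusted p = 0.0394), and also without Control library 8. Lrat had a median of 21.9 CPM (10.9 to 36.1), with a change of 0.58 ± 0.22 (edgeR adjusted p = 0.101). Timp1 spread from 0.283 to 4.08 CPM around a median of 0.804, and its change was 0.57 ± 0.44 (edgeR adjusted p = 0.48). Acta2 (median 5.94 CPM, 2.99 to 7.62), Dcn (133 CPM, 89.7 to 205), Reln (87.6 CPM, 60.7 to 96.7) and Des (5.77 CPM, 5.34 to 9.44) had adjusted p-values of 0.436 or more.

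The direct comparison of Gnas KD with Gcgr KD called no member in the reported fit (0 of 10 in edgeR, where 2.37% of genes were higher and 3.47% lower in Gnas KD). 2 members had an unadjusted p under 0.05 in edgeR. The log2 difference was 0.43 ± 0.34 for Col1a1 (edgeR adjusted p = 0.576), 0.84 ± 0.30 for Acta2 (edgeR adjusted p = 0.0917) and 0.29 ± 0.10 for Reln (edgeR adjusted p = 0.065). Reln was called with DESeq2 (adjusted p = 0.0458, 3 members with an unadjusted p under 0.05) and without the libraries that stand apart (adjusted p = 0.0282). Acta2 was called with these groups fitted alone (adjusted p = 0.0153). Limma-voom called 0 (4 with an unadjusted p under 0.05). The collagen medians of both groups lay above those of Control, although no member was called in Gcgr KD. A call in Gnas KD and none in Gcgr KD does not show that these groups differ.

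PKA KD called more genes in all than Gnas KD, but no member was called against Control. The count was 0 of 10 in edgeR, DESeq2 and limma-voom, with 0 at an unadjusted p under 0.05 in each. Of all genes 17.7% rose and 14.8% fell in edgeR. Col1a1 had a median of 21.5 CPM (8.29 to 63.1), Col1a2 24.0 CPM (15.5 to 52.5) and Col3a1 43.8 CPM (31.8 to 116). Their log2 changes were −0.09 ± 0.34, −0.19 ± 0.25 and −0.24 ± 0.24 (edgeR adjusted p = 0.869, 0.613 and 0.492). Library 5 of PKA KD was the highest of its group for the 3 collagens, Timp1 and Lum, and the lowest for Lrat, Dcn and Reln. Timp1 had a median of 0.318 CPM (0.120 to 2.05) and a change of −0.54 ± 0.46 (edgeR adjusted p = 0.411). With libraries that stand apart left out it was the 1 member that fell, by 1.27 on the log2 scale (edgeR adjusted p = 0.038).

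The remaining members did not pass in PKA KD either. Lrat had a median of 17.4 CPM (10.2 to 25.9), Reln 86.2 CPM (48.1 to 102), Acta2 4.75 CPM (1.25 to 11.5), Lum 4.86 CPM (2.91 to 7.28), Dcn 101 CPM (81.6 to 138) and Des 6.29 CPM (4.59 to 8.32). The adjusted p-values of these 6 genes were 0.259 or more.

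Epac2 KD also gave no called member against Control (0 of 10 in edgeR, where 1.82% of genes rose and 2.74% fell). No member had an unadjusted p under 0.05 in edgeR or DESeq2, and 1 had in limma-voom, where 0 were called. Its collagen levels were low: Col1a1 had a median of 14.5 CPM (9.46 to 33.0), Col1a2 22.9 CPM (16.6 to 40.4) and Col3a1 55.2 CPM (43.1 to 93.0), with a Col1a1 change of −0.49 ± 0.34 (edgeR adjusted p = 0.528). Timp1 had a median of 0.412 CPM and 1 library with no count (0 to 1.22), and its change was −0.77 ± 0.47 (edgeR adjusted p = 0.44). Acta2 went the other way, with a median of 6.06 CPM (2.41 to 17.7) and a change of 0.59 ± 0.30 that did not pass (edgeR adjusted p = 0.328). Lrat had a median of 17.0 CPM (11.2 to 28.7), Dcn 98.9 CPM (78.7 to 174), Reln 78.0 CPM (49.7 to 94.9), Lum 3.69 CPM (2.13 to 8.47) and Des 7.09 CPM (4.05 to 9.42).

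Set against each other, PKA KD and Epac2 KD had lower collagen expression than Gnas KD and Gcgr KD. In PKA KD against Gnas KD 7 of 10 members were lower and none higher (15.6% of all genes lower, 18.4% higher): Col1a1 by −1.39 ± 0.34, Col1a2 by −1.16 ± 0.26, Col3a1 by −1.26 ± 0.24, Reln by −0.32 ± 0.10, Acta2 by −0.97 ± 0.30, Timp1 by −1.68 ± 0.45 and Lum by −0.76 ± 0.23 on the log2 scale. Their edgeR adjusted p-values ran from 5.14e-05 (Col3a1) to 0.0102 (Acta2). In Epac2 KD against Gnas KD 6 members were lower and none higher (12% of genes lower, 12.8% higher), the same list without Acta2, with Col1a1 at −1.79 and Timp1 at −1.92 (edgeR adjusted p = 0.000128 and 0.0014). Against Gcgr KD, 3 members were lower in PKA KD (14.4% of genes lower, 17.3% higher): Col1a1 at −0.96 ± 0.34, Col1a2 at −0.80 ± 0.25 and Col3a1 at −0.83 ± 0.24 (edgeR adjusted p = 0.0257, 0.0128 and 0.00654). Timp1, Dcn and Lum lay just outside the threshold there (edgeR adjusted p = 0.0533, 0.0547 and 0.0557). Without the libraries that stand apart Timp1 was lower too in that comparison (−1.84, adjusted p = 0.00196), 4 members in all, and in PKA KD against Gnas KD Des was lower as well (−0.38, adjusted p = 0.0265), 8 in all, with Timp1 there at −2.42.

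The comparisons with Gcgr KD leaned on single libraries. Without Gcgr KD library 4, the highest for Col1a1 and Timp1, Col1a1 lost its call in PKA KD against Gcgr KD (edgeR adjusted p = 0.0646). Without Gcgr KD library 3, 5 or 10 or PKA KD library 7, 6 members were called instead of 3, and without PKA KD library 3 or 5 the count was 5. In Epac2 KD against Gcgr KD 5 members were lower and none higher (9.72% of genes lower, 11.1% higher): Col1a1, Col1a2, Col3a1, Lum and Timp1, with Col1a1 at −1.36 (edgeR adjusted p = 0.00332). The Timp1 difference of −1.35 ± 0.46 (edgeR adjusted p = 0.0316) dropped to −0.92 without Gcgr KD library 4 (edgeR adjusted p = 0.152) and was kept in 14 of 20 such omissions. It was also lost without Gcgr KD library 1 or Epac2 KD library 2, 5, 8 or 10. No member was called between Epac2 KD and PKA KD in edgeR, DESeq2 or limma-voom (0 of 10, and 0 with an unadjusted p under 0.05 in each), where 17.3% of genes were higher and 18.4% lower. Some markers of other cells were lower in the same comparisons. Of 11 proliferation markers 8 were lower in PKA KD against Gnas KD and 9 in Epac2 KD against Gnas KD. Against Gcgr KD, 3 were lower in PKA KD and 8 in Epac2 KD. Of 18 macrophage markers 5, 6, 4 and 2 were lower in the same order, and no marker of either list was higher. Over all genes 15.6%, 12%, 14.4% and 9.72% were lower in that order. The 2 macrophage markers of the last comparison lie near that share. Without the libraries that stand apart the proliferation counts were 11, 10, 10 and 8 in the same order. The macrophage counts were then 7, 6, 7 and 2, again with none higher. Of 12 cholangiocyte markers 0, 0, 0 and 1 were lower and 0, 1, 1 and 1 higher in that order. Without the libraries that stand apart 0, 3, 0 and 2 of them were lower. Of 16 endothelial markers 1, 0, 1 and 0 were lower and 0, 1, 0 and 0 higher. Summed proliferation markers had medians of 71 CPM in Gnas KD (44.6 to 107), 64.7 in Gcgr KD (37.3 to 71.1), 38.7 in PKA KD (26.3 to 83.2) and 39.8 in Epac2 KD (34 to 51.9), and summed macrophage markers of 472 CPM (358 to 689), 489 (263 to 953), 425 (210 to 538) and 412 (196 to 659), with no marker at 0 in any of these groups. Their part in the collagen differences was not tested.

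In experiment 2, Prkar1a KD with Control mAb lowered 4 of 10 members against Control AAV + Control mAb (Col1a1, Col1a2, Col3a1 and Acta2) and raised none, where 26.9% of all 12847 tested genes fell and 29.3% rose. The median member change was −0.50, beside 0.02 over all genes.

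Col1a1 lay between 4.004 and 25.9 CPM in Control AAV + Control mAb (median 15.98) and between 2.11 and 6.46 CPM in Prkar1a KD + Control mAb (median 4.29). All 10 knockdown libraries were below the control median and 4 were below the lowest control library. The log2 change was −1.73 ± 0.37 (n = 10 per group, edgeR adjusted p = 0.000144). Col1a2 went from a median of 23.3 CPM (10.6 to 35.7) to 10.6 CPM (5.28 to 12.9), a change of −1.17 ± 0.28 (edgeR adjusted p = 0.00046). Col3a1 went from 47.9 CPM (24.6 to 71.2) to 17.9 CPM (11.5 to 25.2), a change of −1.38 ± 0.29 (edgeR adjusted p = 0.00014). For Col3a1 9 of 10 knockdown libraries were below every control library, the clearest separation among the members in this comparison.

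Acta2 fell from a median of 5.64 CPM (0.734 to 12.2) to 2.79 CPM, and its knockdown libraries were tightly grouped (2.25 to 4.08). None of them was below the lowest control library, since 1 control library had 0.734 CPM. The log2 change was −1.01 ± 0.34 (edgeR adjusted p = 0.0122), and it did not pass with limma-voom (−0.79, adjusted p = 0.0826). All 4 calls were kept in 20 of 20 omissions of 1 library. With the libraries that stand apart left out the changes were −1.60 for Col1a1, −1.07 for Col1a2, −1.33 for Col3a1 and −0.81 for Acta2 (edgeR adjusted p = 7.11e-05 for Col1a1 and 0.0258 for Acta2).

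The other members did not pass in Prkar1a KD with Control mAb. Lrat had medians of 27.4 CPM (14.1 to 35.7) and 26.5 CPM (13.9 to 29.6), a change of −0.04 ± 0.20 (edgeR adjusted p = 0.876). Dcn had medians of 186 CPM (147 to 244) and 178 CPM (150 to 209), a change of −0.05 ± 0.11 (edgeR adjusted p = 0.706). Lum, which had gone with the collagens in Gnas KD, had medians of 8.17 CPM (4.54 to 10.1) and 7.30 CPM (4.40 to 10.4), a change of −0.01 (edgeR adjusted p = 0.966). The Lrat, Dcn and Lum groups overlapped over most of their range.

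Reln had medians of 52.3 CPM (33.1 to 96.6) and 51.1 CPM (29.5 to 63.6), and Des of 3.91 CPM (2.60 to 7.48) and 3.59 CPM (2.99 to 4.77), with adjusted p-values of 0.484 and 0.702. Timp1 had at most 38 counts in a library of this experiment. Its medians were 0.304 CPM (0.0648 to 2.07) and 0.267 CPM (0 to 0.797), with a change of −0.82 ± 0.51 (edgeR adjusted p = 0.171), and it fell below the filter on low counts once the libraries that stand apart were left out.

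**Figure D2:**
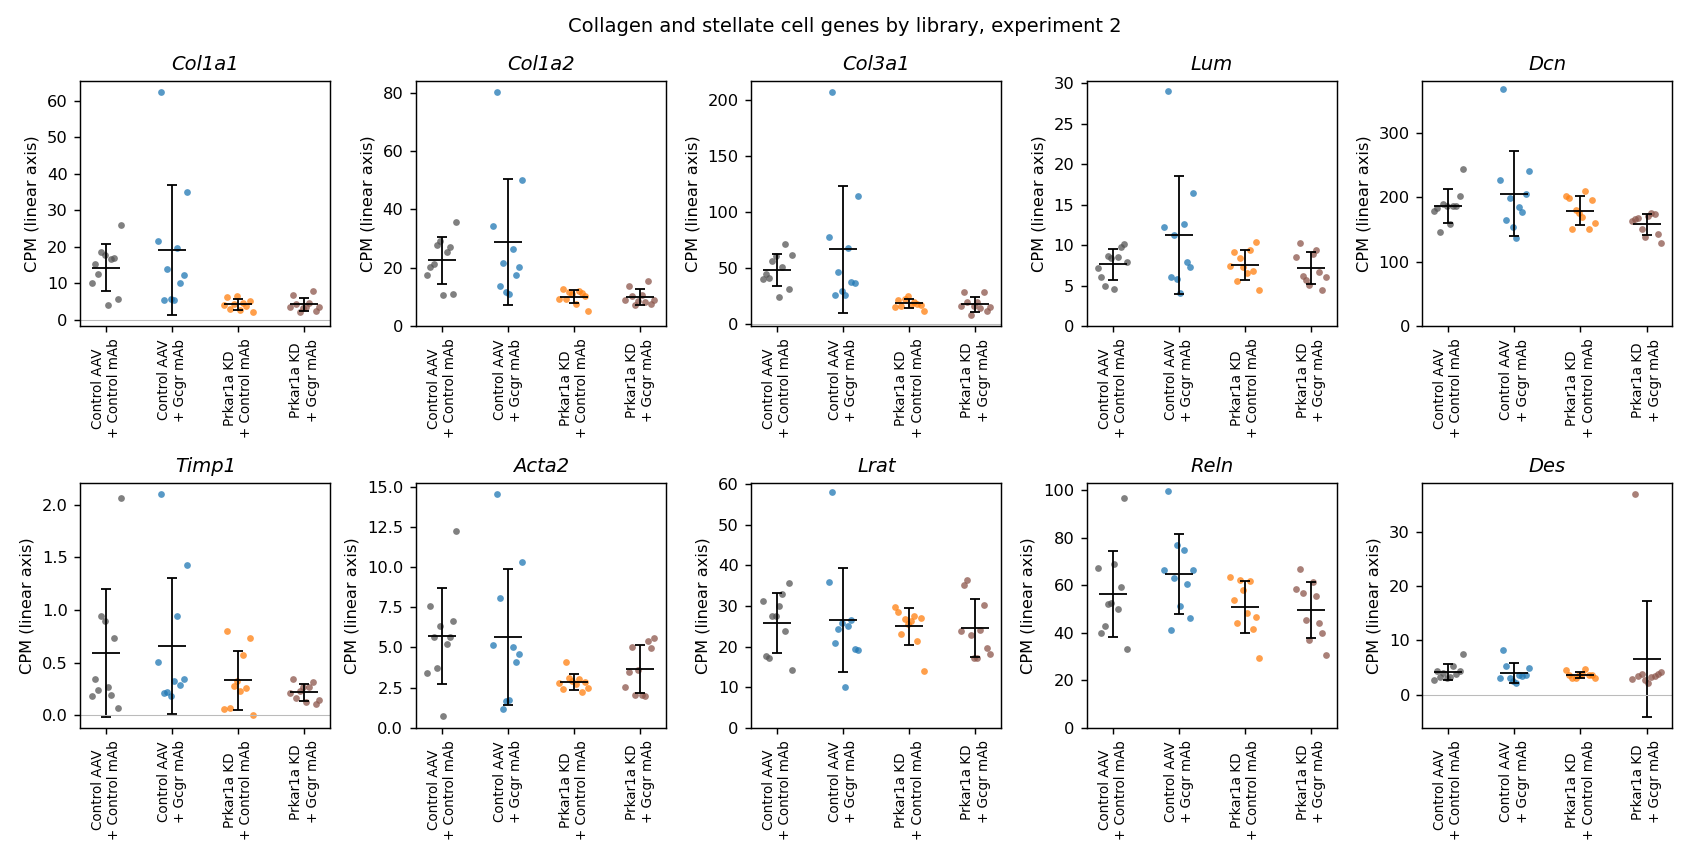
CPM of the 10 members in each of the 40 libraries of experiment 2 on linear axes, by group, with points for libraries and bars for the mean and SD of 10 libraries. The 3 collagen genes sit low in both Prkar1a KD groups, library 2 of Control AAV + Gcgr mAb is the highest of its group for all 10 members, and 1 Des library of Prkar1a KD + Gcgr mAb reaches 37.0 CPM.

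The glucagon receptor antibody alone gave no called member in Control AAV livers. The count was 0 of 10 in edgeR, DESeq2 and limma-voom, where 2.92% of genes rose and 5.27% fell in edgeR. 1 member, Lum, had an unadjusted p under 0.05 in edgeR, 1 in DESeq2 and 0 in limma-voom. Lum had a median of 9.57 CPM (4.12 to 29.0) with Gcgr mAb, a change of 0.57 ± 0.23 (edgeR adjusted p = 0.123). Col1a1 had a median of 13.1 CPM (5.47 to 62.3), Col1a2 20.9 CPM (11.1 to 80.3) and Col3a1 42.1 CPM (25.9 to 207). The Col1a1 change was 0.42 ± 0.35 (edgeR adjusted p = 0.492) and the Col3a1 change 0.48 ± 0.28 (edgeR adjusted p = 0.314). Library 2 of this group gave the highest value for every member, and without the libraries that stand apart the changes were 0.14 for Col1a1 and 0.30 for Lum.

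With that library kept, Dcn ranged from 136 to 368 CPM (median 191), Lrat from 10.1 to 57.9 CPM (median 24.8), Reln from 41.3 to 99.6 CPM (median 64.7), Acta2 from 1.19 to 14.6 CPM (median 4.81), Timp1 from 0.178 to 2.11 CPM (median 0.334) and Des from 2.06 to 8.20 CPM (median 3.45). Without it the highest of the other 9 libraries was 241 CPM for Dcn and 35.9 CPM for Lrat. The adjusted p-values of these 6 members were 0.473 or more.

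Within the Gcgr mAb arms Prkar1a KD lowered 7 of 10 members and raised none (26.6% of genes fell and 26.5% rose). Col1a1 had a median of 3.62 CPM (2.25 to 8.08), Col1a2 8.94 CPM (7.32 to 15.4) and Col3a1 16.5 CPM (8.30 to 28.9), and for each of them 8 of 10 libraries lay below every Control AAV + Gcgr mAb library. The log2 changes were −2.18 ± 0.38, −1.53 ± 0.28 and −1.91 ± 0.30 (edgeR adjusted p = 7.08e-06, 1.6e-05 and 1.36e-06). Dcn fell by less, to a median of 164 CPM (129 to 176), with a change of −0.38 ± 0.11 (edgeR adjusted p = 0.00437). Timp1 had a median of 0.218 CPM (0.109 to 0.344) and a change of −1.62 ± 0.54 (edgeR adjusted p = 0.0108), which did not pass with limma-voom (adjusted p = 0.0712). Lum had a median of 6.47 CPM (4.47 to 10.2) and a change of −0.68 ± 0.23 (edgeR adjusted p = 0.0146), and Reln a median of 50.4 CPM (30.7 to 66.8) and a change of −0.39 ± 0.16 (edgeR adjusted p = 0.0464).

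3 of these 7 calls depended on settings or single libraries. Without Control AAV + Gcgr mAb library 2 the Lum change was −0.41 (edgeR adjusted p = 0.0821), and the Reln change −0.31 (adjusted p = 0.109), while Col1a1 stayed at −1.78 and Timp1 at −1.24 (adjusted p = 0.0483). Reln was called in 8 of 20 omissions of 1 library. It was lost without library 1, 2, 4, 5, 7, 8 or 10 of Control AAV + Gcgr mAb and without library 4, 5, 8, 9 or 10 of Prkar1a KD + Gcgr mAb. With both libraries that stand apart left out, 4 members fell, the 3 collagens and Dcn (−0.25, edgeR adjusted p = 0.0122), and Timp1 was not tested.

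Lrat, Acta2 and Des did not pass within the Gcgr mAb arms. Lrat had a median of 23.3 CPM (17.2 to 36.5) in Prkar1a KD + Gcgr mAb, a change of −0.12 (edgeR adjusted p = 0.629). Acta2 had a median of 3.51 CPM (2.0 to 5.59), a change of −0.64 (edgeR adjusted p = 0.113). Des had a median of 3.41 CPM (2.11 to 37.0) and a change of 0.66 (edgeR adjusted p = 0.133). Library 2 of Prkar1a KD + Gcgr mAb alone carried the high Des value, and the same library held 1091 CPM summed over 10 skeletal muscle genes, against 0.0866 to 19.99 CPM in the other 39 libraries (median 0.529). That gene list was drawn up after the Des value was seen. Without this library Des was 3.25 ± 0.632 CPM (SD, n = 9) and its change turned to −0.29. The part of muscle RNA in the Des value was not tested.

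Against livers with neither treatment, the combination of Prkar1a KD and Gcgr mAb lowered 4 members and raised none (24.2% of genes fell and 26% rose): Col1a1 by −1.76 ± 0.38, Col1a2 by −1.18, Col3a1 by −1.44 and Timp1 by −1.46 ± 0.55 (edgeR adjusted p = 0.000162, 0.000521, 0.000111 and 0.0254). The Timp1 call was lost without Control AAV + Control mAb library 10 (−0.99, adjusted p = 0.132) and with limma-voom (−0.90, adjusted p = 0.177). Without the libraries that stand apart 3 members fell, the collagens, and Timp1 was not tested. Acta2 and Des did not pass (edgeR adjusted p = 0.108 and 0.183). Prkar1a KD with Control mAb against Control AAV + Gcgr mAb, which differ in both factors, showed 5 members lower and none higher (27.9% of genes lower, 28.4% higher), with Col1a1 at −2.15, Col1a2 at −1.52, Col3a1 at −1.85, Acta2 at −0.99 and Lum at −0.59. The edgeR adjusted p-values were 6.16e-06 for Col1a1, 0.0134 for Acta2 and 0.03 for Lum. Without Control AAV + Gcgr mAb library 2, 3 members were called, and Acta2 (−0.72, adjusted p = 0.0581) and Lum (−0.32, adjusted p = 0.164) were lost. Without both libraries that stand apart 4 were called, and Lum was not. The Lum call was also lost without library 10 of Control AAV + Gcgr mAb and without library 3 or 10 of Prkar1a KD + Control mAb. Col3a1 was the 1 member without overlap in this comparison, where 6.01% of all genes lay wholly lower: every Prkar1a KD + Control mAb library (11.5 to 25.2 CPM) was below every Control AAV + Gcgr mAb library (25.9 to 207 CPM).

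Once Prkar1a was lowered, the antibody called no member and no gene at all in edgeR (0% higher and 0% lower of 12847 genes, with 846 genes at an unadjusted p under 0.05). DESeq2 and limma-voom also called 0 genes, with 902 and 790 at an unadjusted p under 0.05. Among the members 1, Des, had an unadjusted p under 0.05 in edgeR, and 0 had in the other tools. The Des difference was 0.78 ± 0.37 (edgeR adjusted p = 0.755). Library 2 of Prkar1a KD + Gcgr mAb held 36.97 CPM of Des, against 2.11 to 4.11 CPM in the other 9 of its group. The Col1a1 difference between the Prkar1a KD groups was −0.03 ± 0.39 (edgeR adjusted p = 0.992), and those of Col1a2 and Col3a1 were −0.01 ± 0.28 and −0.06 ± 0.30.

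The interaction of Prkar1a KD and Gcgr mAb asks whether the Prkar1a KD change differed between the antibodies, and no member passed (0 of 10 in edgeR, DESeq2 and limma-voom, where 2.74% of genes had a positive and 1.34% a negative interaction in edgeR). 1 member had an unadjusted p under 0.05 in edgeR, 2 in DESeq2 and 0 in limma-voom. The interaction was −0.45 ± 0.52 for Col1a1 (edgeR adjusted p = 0.662), −0.66 ± 0.33 for Lum (edgeR adjusted p = 0.248) and −0.33 ± 0.16 for Dcn (edgeR adjusted p = 0.231). The larger number of calls within the Gcgr mAb arms therefore does not show a larger effect of Prkar1a KD there.

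**Figure D3:**
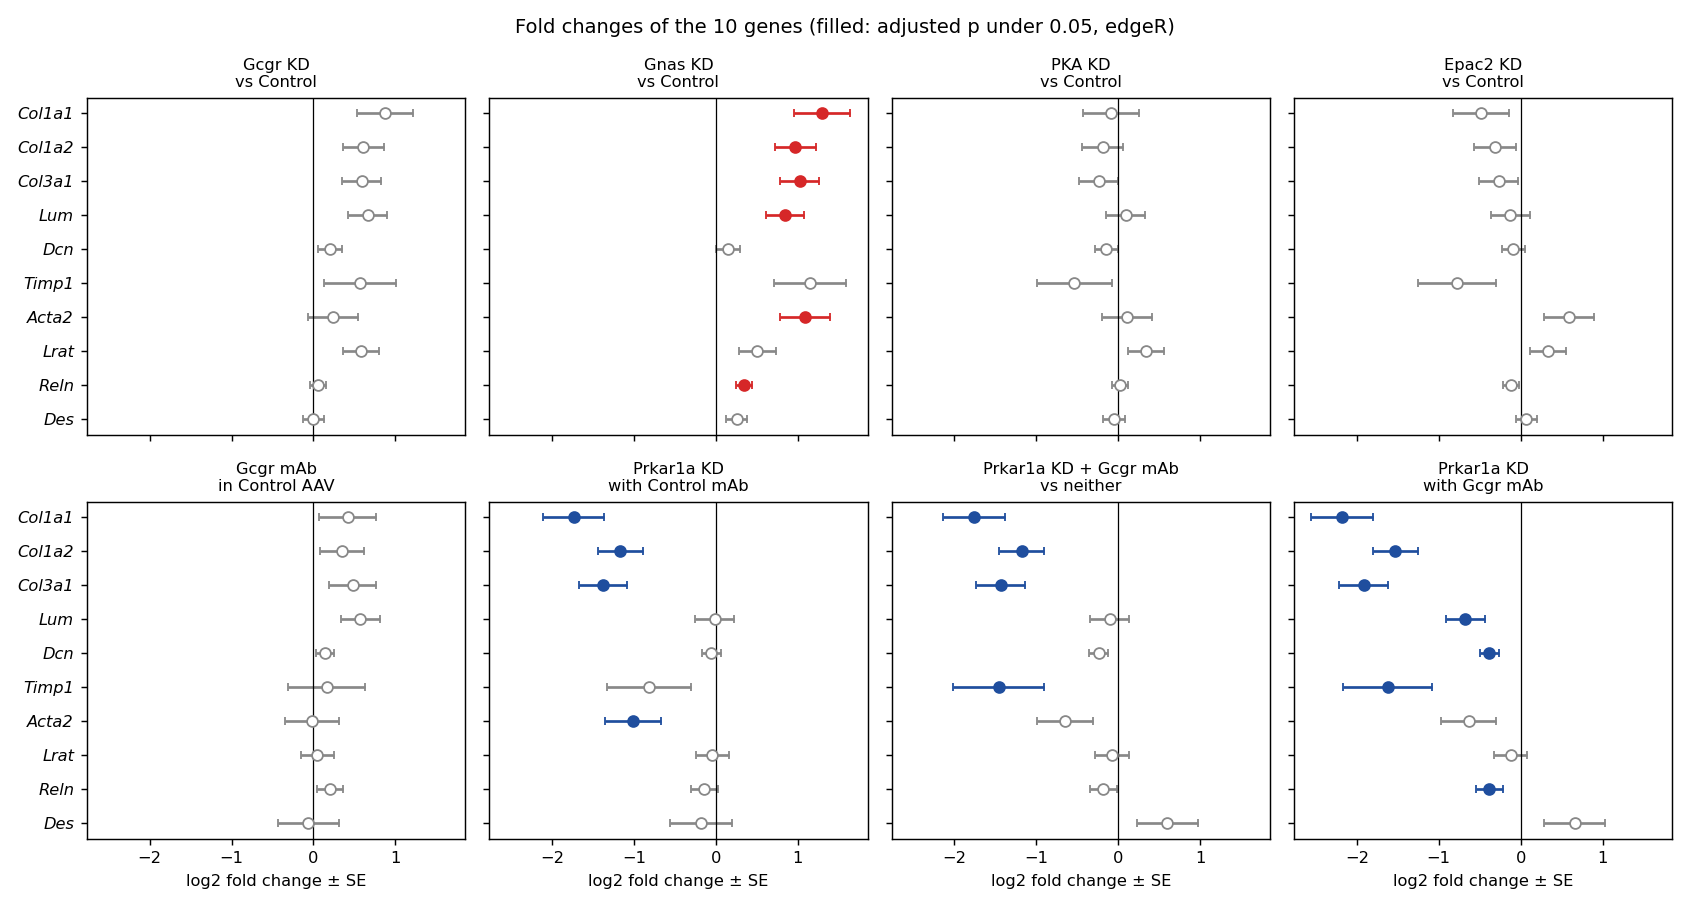
Log2 fold change of the 10 members with its standard error in 8 comparisons, with filled points where edgeR's adjusted p was under 0.05. The collagens lie above 0 in Gnas KD (1.30 for Col1a1) and below 0 in the comparisons of Prkar1a KD with Control AAV (−1.73 and −2.18 for Col1a1), while Lrat is called in none of them.

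The ratio of Col1a1 RNA to Col1a2 RNA had medians that differed between some of the groups. The ratio of Col1a1 CPM to Col1a2 CPM had a median of 0.79 in Control (0.718 to 0.879), 0.905 in Gcgr KD (0.729 to 1.26), 1.01 in Gnas KD (0.739 to 1.15), 0.76 in PKA KD (0.534 to 1.2) and 0.642 in Epac2 KD (0.556 to 0.887). In experiment 2 it was 0.619 in both Control AAV groups (0.377 to 0.757 with Control mAb and 0.398 to 0.776 with Gcgr mAb), 0.399 in Prkar1a KD + Control mAb (0.313 to 0.59) and 0.398 in Prkar1a KD + Gcgr mAb (0.305 to 0.566). By the medians the ratio was highest in Gnas KD and lowest in Epac2 KD within experiment 1, and lower in the Prkar1a KD groups than in the Control AAV groups within experiment 2, with overlap between the groups. These ratios describe RNA and not protein chains, the CPM values are not length-corrected, and no test was run on them.

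Within groups, some pairs of members varied together from library to library and other pairs did not pass. Log2 CPM was taken as its difference from the group mean, which removes the group effects, and libraries were permuted within groups 100000 times, for 90 relations over both experiments. Col1a1 and Col1a2 correlated with r = 0.97 and rho = 0.96 over 50 libraries and r = 0.96 and rho = 0.93 over 40 (permutation p = 1e-05 for each, the smallest these permutations can give, and 3.2e-05 or 3.7e-05 after Benjamini-Hochberg adjustment). Without the 2 libraries farthest from the Col1a1 median r was 0.96 and 0.95. Col1a1 and Timp1 had r = 0.80 and rho = 0.82 in experiment 1 and r = 0.78 and rho = 0.76 in experiment 2 (permutation p = 1e-05 for each, adjusted 3.2e-05 and 3.7e-05), and r = 0.76 and 0.74 without those 2 libraries. Dcn and Lum had r = 0.75 and rho = 0.72 in experiment 1 and r = 0.85 and rho = 0.78 in experiment 2 (permutation p = 1e-05 for each, adjusted 3.2e-05 and 3.7e-05), and r = 0.69 and 0.74 without the 2 farthest.

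Reln passed with none of the 3 collagens after adjustment. With Col3a1 it had r = 0.33 and rho = 0.24 in experiment 2 (permutation p = 0.045 and 0.14, adjusted 0.059 and 0.17, r = 0.21 without the 2 farthest). Its r with Col1a1 was 0.00 and rho 0.21 in experiment 1 (permutation p = 1 and 0.15, adjusted 1 and 0.17), with r = 0.25 without the 2 farthest libraries. In experiment 2 r was 0.16 and rho 0.16 (permutation p = 0.34 and 0.33, adjusted 0.39 and 0.36), with r = 0.11 without them. Reln did vary with Dcn, with r = 0.53 and rho = 0.51 in experiment 1 (permutation p = 0.0002 and 0.00034, adjusted 0.0005 and 0.00087, r = 0.48 without the 2 farthest). In experiment 2 Reln and Dcn had r = 0.42 and rho = 0.41 (permutation p = 0.0085 and 0.01, adjusted 0.013 and 0.017, r = 0.29 without the 2 farthest). Lrat and Col1a1 had r = 0.40 and rho = 0.45 in experiment 1 (permutation p = 0.0058 and 0.0023, adjusted 0.0092 and 0.005, r = 0.47 without the 2 farthest). In experiment 2 their r of 0.36 and rho of 0.30 did not pass (permutation p = 0.065 and 0.07, adjusted 0.081 and 0.1, r = 0.25 without the 2 farthest). Lrat and Reln, both of them stellate cell genes, had r = 0.72 and rho = 0.68 in experiment 2 (permutation p = 1e-05 for each, adjusted 3.2e-05 and 3.7e-05, r = 0.72 without the 2 farthest). In experiment 1 that pair had r = 0.29 and rho = 0.26 (permutation p = 0.046 and 0.073, adjusted 0.059 and 0.1, r = 0.37 without the 2 farthest). Lrat and Dcn had r = 0.42 and rho = 0.43 in experiment 1 (permutation p = 0.0035 and 0.0032, adjusted 0.0063 and 0.0067, r = 0.50 without the 2 farthest). In experiment 2 Lrat and Dcn had r = 0.54 and rho = 0.44 (permutation p = 0.0041 and 0.005, adjusted 0.007 and 0.0094, r = 0.22 without the 2 farthest).

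**Figure D4:**
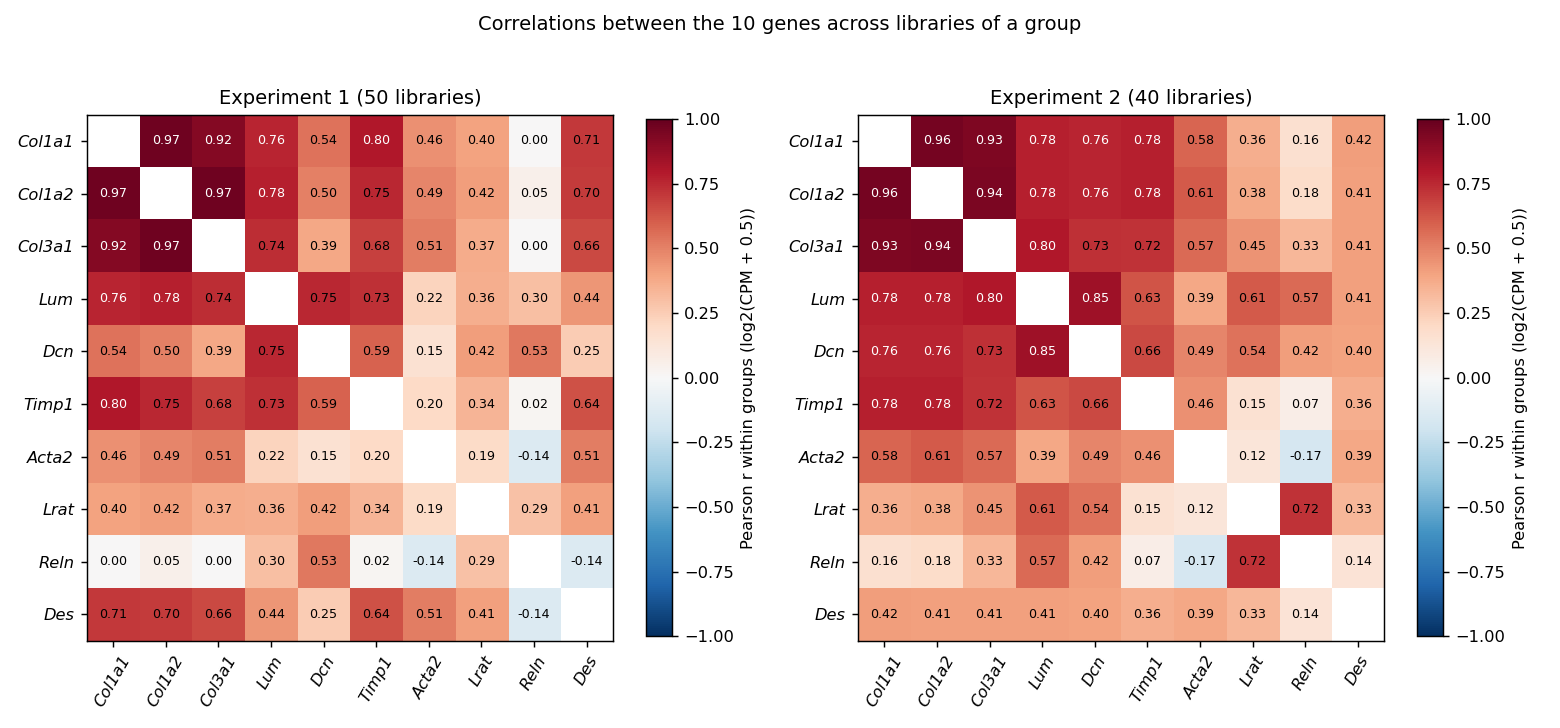
Pearson r between members over 50 libraries of experiment 1 and 40 of experiment 2, after the group mean of log2 CPM was taken from each library. Col1a1, Col1a2 and Col3a1 form a block with r of 0.92 or more in both experiments, and Reln has r of 0.00 and 0.16 with Col1a1.

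Type III collagen and decorin, the members highest per kilobase in the control groups, can be set side by side across the groups. In Gnas KD the Col3a1 median was 130 CPM beside 67.6 in Control, while that of Dcn was 120 beside 112. In Prkar1a KD + Control mAb the Col3a1 median was 17.9 CPM beside 47.9, and that of Dcn 178 beside 186.

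**Figure D5:**
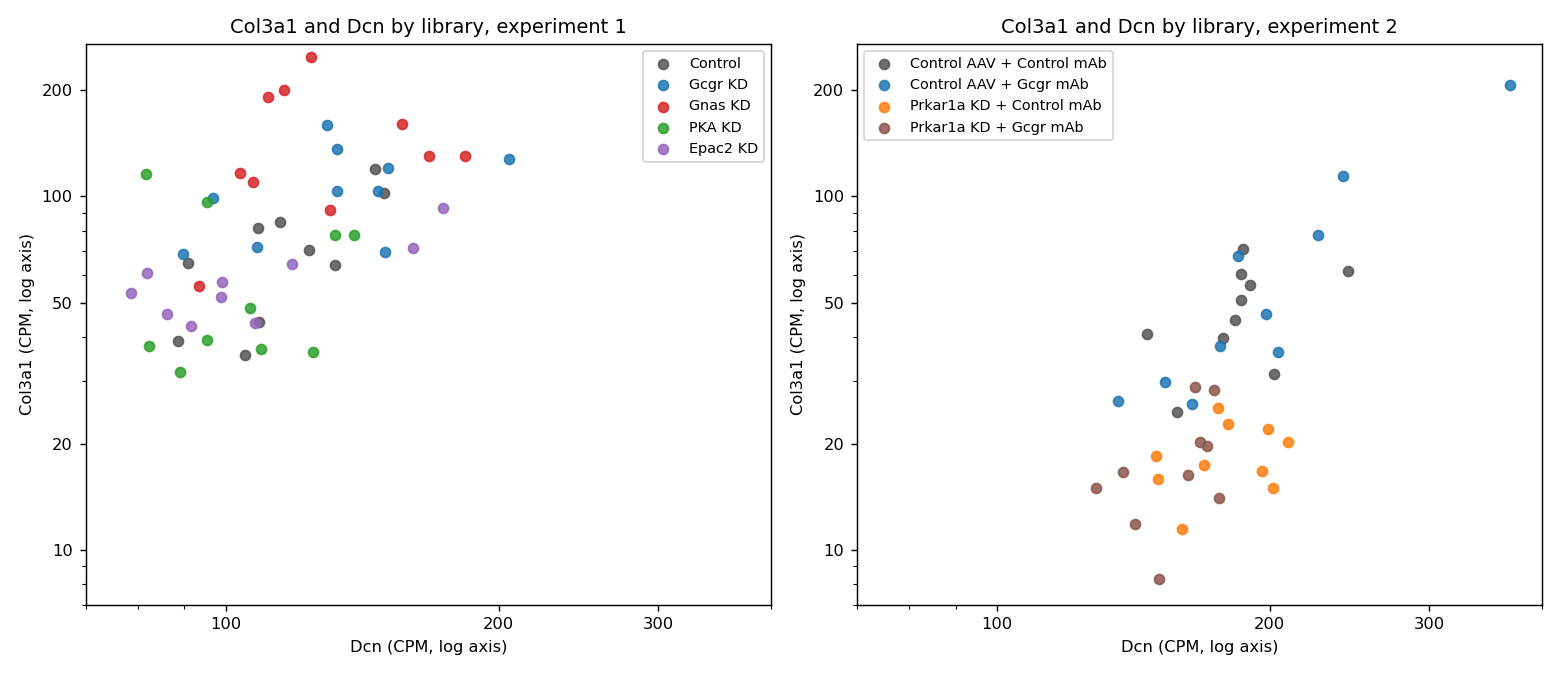
Col3a1 CPM against Dcn CPM for each library on log axes, with experiment 1 and experiment 2 in separate panels and a colour per group. The groups spread along the Col3a1 axis, from 8.30 to 207 CPM in experiment 2, more than along the Dcn axis, where the same libraries span 129 to 368 CPM.

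The genes outside the 10 members whose log2 CPM most resembled that of each member in both experiments, among 12728 genes tested in both, are given as a description over 50 and 40 libraries that share depth and preparation. For Col1a1 they were Fstl1 (r = 0.919 and 0.937), Adamts2 (0.926 and 0.906), a procollagen N-proteinase, and Sparc (0.904 and 0.957), a collagen-binding matricellular protein. The same 3 genes came first for Col1a2 and Col3a1. For Lrat they were Dennd2a (0.709 and 0.765), Rarb (0.78 and 0.644), a retinoic acid receptor, and Prelp (0.638 and 0.702). Dcn was most like Bgn (0.894 and 0.862), which encodes biglycan, followed by Tgfbi and Pam, and Reln most like Gdf2 (0.737 and 0.757), which encodes BMP9, followed by Ccbe1 and Igsf10. Acta2 was most like the smooth muscle genes Myl9 (0.894 and 0.833), Myh11 and Tagln, and Timp1 most like Ccdc80 (0.826 and 0.779), Vim and Col6a2. Lum was most like Col6a1 (0.873 and 0.847), Fbn1 and Col6a2, and Des most like Cryab (0.673 and 0.788), Fhl1 and S100a6. Differences between groups were left in these correlations. For Des, experiment 2 includes library 2 of Prkar1a KD + Gcgr mAb, with 36.97 CPM of Des and 1091 CPM of summed skeletal muscle genes. The part of that library in the correlations was not tested.

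Other genes of the matrix moved with the collagens in Gnas KD. Of 30 other matrix genes 16 rose and none fell, with a median log2 change of 0.53 beside 0.01 over all genes. In Gnas KD 6.83% of all genes rose and 8.32% fell, the background for each list of this comparison. Col5a2, a chain of type V collagen (1.02 ± 0.23, edgeR adjusted p = 0.00118), Nid1, which encodes nidogen (0.96 ± 0.26, adjusted p = 0.00783), and Eln, which encodes elastin (0.95 ± 0.25, adjusted p = 0.00673), were the largest rises. Of 20 tested genes of collagen processing 7 rose and 1 fell (median 0.32, and 9 rose without the libraries that stand apart), among them the lysyl oxidase Loxl2 at 0.72 ± 0.18 (adjusted p = 0.00508) and, downward, P4hb, a subunit of prolyl 4-hydroxylase also known as protein disulfide isomerase, at −0.66 ± 0.06 (adjusted p = 2.74e-12). Of 16 tested genes of matrix breakdown and its inhibitors 2 rose and none fell, 5 rose without the libraries that stand apart. 5 of 16 myofibroblast markers rose and none fell, or 6 without those libraries, with Tagln at 0.99 ± 0.21 (adjusted p = 0.000881) and Ltbp2 at 0.95 ± 0.23 (adjusted p = 0.00285). 5 of 26 genes of TGF-beta and PDGF signalling rose, led by Inhba, an activin subunit, at 1.07 ± 0.20 (adjusted p = 0.000144).

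The further stellate cell markers did not follow. Of 25, 1 rose (Steap4, 0.62 ± 0.13, edgeR adjusted p = 0.000579) and 1 fell (Vipr1, −0.17, adjusted p = 0.0216), with a median change of 0.09, and 2 rose and 2 fell without the libraries that stand apart. Their summed level was 716 to 815 CPM in Control and 695 to 934 in Gnas KD. Of 20 retinoid genes 2 rose and 4 fell, with Rarres1 at 0.96 ± 0.19 (adjusted p = 0.000311) and the retinol dehydrogenase Rdh16 at −1.12 ± 0.23 (adjusted p = 0.000575). Markers of other cell types moved in the same libraries: 3 of 18 macrophage markers rose (Gpnmb, Trem2 and Cd68), 4 of 12 cholangiocyte markers rose, with Spp1 at 1.45 ± 0.46 (adjusted p = 0.0236), and 7 of 11 proliferation markers rose (9 without the libraries that stand apart), while 0 of 16 endothelial and 0 of 12 lymphocyte markers changed. 1 of 15 portal fibroblast (2 without those libraries) and 1 of 9 vascular smooth muscle markers rose, and 1 of 12 hepatocyte markers rose and 3 fell. Summed macrophage markers were 276 to 484 CPM in Control and 358 to 689 in Gnas KD, summed cholangiocyte markers 67.9 to 167 and 136 to 364 CPM, and summed proliferation markers 36.3 to 67.2 and 44.6 to 107 CPM, with no marker of these lists at 0 in either group. Their part in the collagen result was not tested.

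In Gcgr KD none of the 30 other matrix genes was called, although 26 had a change above 0 (median 0.38). Of all genes 2.9% rose and 4.33% fell there. 2 collagen processing genes rose, Loxl2 (0.59 ± 0.18, edgeR adjusted p = 0.0397) and Pcolce (0.50, adjusted p = 0.0395), a procollagen proteinase enhancer, and 3 did without the libraries that stand apart. 3 of 26 TGF-beta and PDGF genes rose, with Inhba at 0.66 ± 0.20 (adjusted p = 0.0349), and 3 of 20 retinoid genes rose, with none falling, or 2 falling without those libraries. 1 of 16 myofibroblast markers rose, Tpm1 (0.57, adjusted p = 0.00832). Of the further stellate markers none rose and 1 fell, and 1 rose and 1 fell without those libraries. In PKA KD, where no member was called, 1 matrix gene rose and 1 fell, beside 17.7% of all genes that rose and 14.8% that fell. Of 26 TGF-beta and PDGF genes 3 rose and 2 fell, or 3 and 3 without the libraries that stand apart. Of 20 collagen processing genes 1 rose and 4 fell. Inhba rose in PKA KD by 1.65 ± 0.20 (adjusted p = 4.39e-09) while the prolyl hydroxylase subunit P4ha2 was at −0.94 ± 0.11 (adjusted p = 2.55e-09). 6 of 12 cholangiocyte markers rose in PKA KD, and 1 without the libraries that stand apart. In Epac2 KD 0 of 30 matrix genes and 0 of 25 further stellate markers were called, where 1.82% of all genes rose and 2.74% fell.

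In Prkar1a KD with Control mAb 13 of 30 other matrix genes fell and 3 rose (median −0.30, beside 0.02 over all genes, where 26.9% fell and 29.3% rose). These shares of all genes are the background for each list of this comparison. Genes named from a list near or below these shares are a description only. Mfap4, a microfibril-associated protein, was at −1.48 ± 0.30 (edgeR adjusted p = 6.65e-05) and Fstl1 at −1.03 ± 0.21 (adjusted p = 6.89e-05), while Col12a1, a chain of a fibril-associated collagen, rose by 1.02 ± 0.19 (adjusted p = 1.97e-05). Of 19 collagen processing genes 8 fell and 1 rose, with the lysyl oxidase Loxl1 at −0.86 (adjusted p = 0.00172) and Adamts2 at −0.61 (adjusted p = 0.00571). Of 16 breakdown genes 5 fell and 2 rose, with Mmp2 at −0.80 (adjusted p = 0.00233). 9 of 14 myofibroblast markers fell and 1 rose (median −0.90), with Lgals1 at −2.10 ± 0.28 (adjusted p = 4.27e-08) and Tagln at −1.28 ± 0.23 (adjusted p = 8.38e-06). Without the libraries that stand apart 7 of 13 myofibroblast markers fell, 4 matrix genes rose, 7 processing genes fell, and 6 breakdown genes fell and 3 rose.

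Of 24 further stellate cell markers 4 rose and 3 fell (5 and 4 without the libraries that stand apart), fewer in each direction than the 29.3% and 26.9% of all genes, a difference that was not tested, with a median of −0.01. Steap4 (0.86 ± 0.13, edgeR adjusted p = 4.88e-07), the growth factor Hgf (0.68, adjusted p = 0.0338) and the receptor Pdgfra (0.53, adjusted p = 0.00642) rose, and Adamtsl2 (−0.67, adjusted p = 0.011) and Tlcd4 (−0.57, adjusted p = 0.00013) fell. Their summed level was 593 to 875 CPM in Control AAV + Control mAb and 609 to 903 CPM in Prkar1a KD + Control mAb. Of 18 retinoid genes 10 fell and 1 rose, with Rarres1 at −6.28 ± 0.35 (adjusted p = 1.26e-17). Of 26 TGF-beta and PDGF genes 9 fell and 6 rose (5 without those libraries), with Pdgfa at −0.96 (adjusted p = 0.000112).

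Markers of other cells are given beside these values, with 26.9% of all genes falling and 29.3% rising as background. 7 of 14 portal fibroblast and mesothelial markers fell and none rose, with Fbln2 at −1.51 ± 0.19 (edgeR adjusted p = 1.31e-08), and their summed level was 81.8 to 136 CPM in Control AAV + Control mAb and 52.1 to 70.5 CPM in Prkar1a KD + Control mAb. 2 of 9 vascular smooth muscle markers fell, and 1 rose without the libraries that stand apart, and their sum went from 123 to 159 CPM down to 66.1 to 85.2 CPM. 4 of 16 endothelial markers fell, 7 of 18 macrophage markers rose (8 without those libraries), 2 of 10 cholangiocyte markers rose and 2 fell, and 1 of 13 lymphocyte markers rose (2 without those libraries). The endothelial, vascular smooth muscle and cholangiocyte shares lie at or below those of all genes. 7 of 12 hepatocyte markers fell and 4 rose, with a summed level of 98700 to 113000 CPM in Control AAV + Control mAb and 54000 to 72000 CPM in Prkar1a KD + Control mAb, and 11 of 12 proliferation markers rose. No marker of these lists was at 0 in either group, and their part in the collagen result was not tested.

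Within the Gcgr mAb arms 26.6% of all genes fell and 26.5% rose with Prkar1a KD, the background for each list of this comparison. Prkar1a KD lowered 23 of 30 other matrix genes there and raised 1 (21 without the libraries that stand apart), with Nid1 at −1.39 ± 0.26 (edgeR adjusted p = 2.59e-05) and Col5a2 at −1.14 ± 0.27 (adjusted p = 0.000437). 15 of 19 collagen processing genes fell and 1 rose, 14 and 2 without those libraries, and 8 of 14 myofibroblast markers fell and 1 rose, 6 of 13 and 1 without them. Of 24 further stellate markers 7 fell and 1 rose, 4 and 2 without the libraries that stand apart. Their falls lie near the share of all genes, and below it without those libraries. The receptor Pdgfrb was at −0.68 ± 0.17 (adjusted p = 0.000811). Here 14 of 16 endothelial markers fell as well (13 without those libraries), with Stab2 at −1.29 ± 0.16 (adjusted p = 1.37e-08), and 8 of 18 macrophage markers, or 5 without the libraries that stand apart. Summed endothelial markers were 198 to 340 CPM in Control AAV + Gcgr mAb and 118 to 224 CPM in Prkar1a KD + Gcgr mAb. With the antibody alone 0 of 30 matrix genes rose and 1 fell, or none without those libraries, where 2.92% of all genes rose and 5.27% fell.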

How the data were processed

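Liver polyA RNA of 90 mouse samples was measured in 2 experiments of 50 and 40 libraries, made with a strand-specific kit per the labels' protocols. Per the file headers, the authors deposited expected counts, 1 table per experiment, with 1 value per Entrez gene and library. Per the submitters' processing notes, bcl2fastq 2.17 and FastQC were used with GRCm38 and mm10. Not given in the sources used here are aligner, counting program and the treatment of reads shared between similar or overlapping genes.

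Expected counts were rounded and tested in each experiment over all its groups, which share 1 estimate of the spread, with edgeR 4.0.16 in R 4.3.3 (filterByExpr, TMM, robust quasi-likelihood F test). The filter left 13574 and 12847 genes, and p-values were adjusted by Benjamini-Hochberg over all genes of a contrast, with calls at an adjusted p under 0.05. Residual degrees of freedom were 45 and 36 and common dispersions 0.0471 and 0.0394. Groups were taken from the labels, and 0 columns were left out. Per-kilobase levels used union exon lengths of a GENCODE annotation of GRCm38. The counts of any pair of libraries in a group differed beyond Poisson noise, so none was counted as the same library. Separate preparations of 1 animal could not be seen this way.

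The 16 gene lists, of which the members are 1, were chosen with earlier results of these data known. The text names all members, up to 3 called genes per direction of a list whose average log2 CPM is not below 0, and the 3 genes most correlated with each member. Within-group correlations used log2 of CPM plus 0.5. The Tmem56 marker is listed under its newer symbol, Tlcd4. Alternatives were RLE scaling, no filter, a replicate block, DESeq2 1.42.0, limma-voom (limma 3.58.1), only the groups compared, and, chosen after the data were seen, omission of each library and of 5 libraries that stand apart. The scripts were tested on simulated data.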

Additional observations from a re-analysis of the deposited data

Results flagged for a closer look

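Single libraries far from the other 9 of their group were found in 14 of 90 combinations of a member and a group. The cutoff gives about 1 in 20 for independent, normally distributed values. Linear CPM need not be normal and members vary together, so the 14 cannot be read against that rate. In each case the gap between the extreme library and its nearest neighbour took up more than 0.466 of the range of the group.

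Library 2 of Control AAV + Gcgr mAb gave 5 of them, all high: Col1a1 at 62.31 CPM, Col3a1 at 207.1, Dcn at 368, Lum at 29.02 and Des at 8.197. Library 10 of Control AAV + Control mAb was high for Timp1 (2.069 CPM) and Des (7.484 CPM). Both are among the 5 libraries that stand apart from their group's profile.

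Library 5 of PKA KD was high for Col1a1 (63.09 CPM) and low for Reln (48.13 CPM). Library 4 of Gcgr KD was high for Dcn (205.2 CPM) and Timp1 (4.076 CPM). In Prkar1a KD + Control mAb, library 10 was low for Lrat (13.9 CPM) and library 3 high for Acta2 (4.076 CPM). Library 2 of Prkar1a KD + Gcgr mAb was high for Des (36.97 CPM), beside 1091 CPM of summed skeletal muscle genes.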

How the results depend on the processing

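No called member changed direction under any of the alternatives that were run. The count of called members was within 1.5 times the reported one for all 17 comparisons with RLE scaling and with no filter. Timp1 in experiment 2 could not be tested with the 5 libraries that stand apart left out, and the interaction has no fit with only the groups compared. PKA KD against Control went from 0 to 1 called member without those 5 libraries, and Prkar1a KD within the Gcgr mAb arms from 7 to 4. Gnas KD against Gcgr KD went from 0 to 1 with the replicate block, DESeq2 and those 5 left out (Reln in each) and with only the groups compared (Acta2). PKA KD against Gcgr KD went from 3 to 6 with DESeq2, and Prkar1a KD + Control mAb against Control AAV + Gcgr mAb from 5 to 3 with limma-voom. The causes were not tested. Leaving out 1 library at a time gave 0 to 1 for Gcgr KD against Control (1 without Gcgr KD library 5 or Control library 8), 0 to 1 for Gnas KD against Gcgr KD (1 without Gnas KD library 3 or 9), 2 to 6 for PKA KD against Gcgr KD, 5 to 7 for Prkar1a KD within the Gcgr mAb arms and 3 to 6 for Prkar1a KD + Control mAb against Control AAV + Gcgr mAb. In this way 26 refits of called fold changes lost the call and 914 did not. The labels name no source shared by samples of the same replicate number, so the reported fit did not pair them. Same-numbered libraries had correlations from −0.389 to 0.568, which do not settle whether any were paired. With the replicate block the count of called members was within 1.5 times in 16 of 17 comparisons, and Lum in Prkar1a KD + Control mAb against Control AAV + Gcgr mAb lost its call (−0.48, adjusted p = 0.0562). Over all genes, 241 rose and 367 fell with Gcgr mAb in Control AAV with only those groups fitted, against 375 and 677, and 106 negative interactions were called with no filter, against 172. Depth limits Timp1 most, with at most 38 counts per library in experiment 2.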
